A study of Mus musculus with 6 samples.

Results

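The WNT genes described here are the ligands, receptors and extracellular modulators of the WNT pathway. They were chosen by gene symbol alone: every row named as a Wnt, Fzd, Sfrp, Dkk, Rspo or Lgr4 to Lgr6 gene, with Lrp5, Lrp6, Axin2, Lef1, Wif1, Frzb and Notum. The rule found 49 of the 18482 genes listed. RNA came from ear skin of mice at postnatal day 21, all of them treated with tamoxifen. The lecko group had lost Vegfr2 (gene symbol Kdr, the main VEGF receptor of endothelium) in lymphatic vessels, and the control group were littermates, with 3 libraries of polyadenylated RNA in each. The sources used here do not name the Cre driver, the alleles that the controls carry, or which of the study's tamoxifen schedules these mice had. The labels do not name the animal behind each library, so p-values measure the spread between these 6 libraries.

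WNT ligands are secreted proteins that carry a lipid and bind a Frizzled receptor together with the co-receptor Lrp5 or Lrp6. In the canonical branch this stabilises beta-catenin, which acts in the nucleus with Lef1 or another TCF factor on targets such as Axin2. R-spondins raise the response by binding Lgr4, Lgr5 or Lgr6. In contrast, Sfrp proteins, Frzb and Wif1 bind the ligand, Dkk1 and Dkk2 bind Lrp6 and Notum removes the lipid. In mouse skin the pathway is known for forming hair follicles and restarting their growth, with ligands made by both epidermis and dermis.

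Kdr, the deleted gene, gave 9.76, 11.2 and 10.2 CPM in lecko libraries 1 to 3, against 32.6, 31.3 and 38.5 CPM in controls 1 to 3. CPM, the usual depth-scaled unit, are the deposited counts scaled by library size and TMM factor. All lecko libraries were below all controls, a log2 fold change of -1.72 (95% interval -1.95 to -1.48), with an adjusted p of 0.00026 (edgeR, quasi-likelihood test, Benjamini-Hochberg). In whole skin the parts of lymphatic and blood vessels in this drop cannot be told apart. Total counts were 17550952 to 17825135 in lecko libraries and 17242921 to 17678754 in controls. Controls 2 and 3 held 242 and 265 CPM of 4 Y-linked genes, while the lecko libraries held 0.224 to 1.19 CPM and control 1 held 1.03 CPM. Among controls, only control 1 is as low in these genes as the lecko libraries, and values set against it alone are given for many genes below. With it as the sole control, the log2 fold change of 28 of the 45 WNT genes tested moved by over 1.5 times or turned sign.

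The skin holds many cell types. The 6 keratinocyte markers summed to 22570 to 23775 CPM in lecko and 22179 to 25572 CPM in control skin. The 8 fibroblast markers summed to 26375 to 28951 CPM in lecko and 21944 to 35381 CPM in control skin, so both sums overlapped between the groups. By gene, 1 of 6 keratinocyte markers was positive, with a median log2 fold change of -0.10 and 0 at an unadjusted p under 0.05 by edgeR. Of 8 fibroblast markers 6 were positive, with a median of 0.11 and 2 at such a p, Dpp4 (log2 0.22) and Pdgfra (log2 0.23). The sums of hair matrix (197 to 265 CPM in lecko, 209 to 235 CPM in control), hair shaft (26.9 to 54.2 and 10.2 to 41.2 CPM), dermal papilla (186 to 200.1 and 166 to 193 CPM) and bulge markers (1547 to 1623 and 1529 to 1857 CPM) overlapped too. All 9 hair shaft markers tested were nonetheless positive, with a median log2 fold change of 0.86 and none at an unadjusted p under 0.05. The hair shaft sums were 38.8, 26.9 and 54.2 CPM in lecko libraries 1 to 3, against 41.2, 10.2 and 18.8 CPM in controls 1 to 3. Control 1 was thus above lecko 1 and lecko 2. Of 9 dermal papilla markers 7 were positive, with a median of 0.18. At an unadjusted p under 0.05 by edgeR was 1, Fgf7 (20.8 ± 3.52 CPM in lecko and 14.4 ± 1.17 CPM in control skin, log2 0.53). Sums that did not overlap were those of 6 leukocyte markers, higher in lecko skin (230.4 to 311 against 158 to 228 CPM), and, lower in lecko skin, 7 lymphatic (311 to 338 against 359 to 409 CPM), 7 blood or pan-endothelial (271 to 299 against 331 to 358 CPM) and 7 skeletal muscle markers (3628 to 4593 against 4854 to 5443 CPM). By gene, 2 of 7 lymphatic markers were positive, with a median log2 fold change of -0.11 and 2 lower at an unadjusted p under 0.05 by edgeR. Of the lymphatic markers, Ccl21a was at 96.0 ± 17.5 CPM in lecko and 144 ± 13.6 CPM in control skin (log2 -0.58), and Prox1 was higher (log2 0.18). Of the 7 blood or pan-endothelial markers 0 were positive, with a median of -0.25 and 6 at such a p. All 6 leukocyte markers were positive, with a median of 0.54 and 4 at such a p. Of 7 skeletal muscle markers 0 were positive, with a median of -0.30 and 5 at such a p. Of 8 hair matrix markers 7 were listed, and all listed markers had reads in some library. The part of these cell types in the WNT values was not tested, and in whole skin fewer cells of a type and less RNA per cell cannot be told apart.

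None of the 45 WNT genes with enough reads to be tested passed edgeR's quasi-likelihood test. The smallest adjusted p was 0.341 (edgeR, Benjamini-Hochberg over 14856 genes), and of all genes tested 0.0135% were called higher and 0.00673% lower. DESeq2 called 1 WNT gene, Dkk2, as higher, and none as lower, where it called 0.131% of genes higher and 0.0596% lower. Before adjustment, edgeR put p under 0.05 on 5 WNT genes that were higher (11.1% of 45, against 4.89% of all genes) and on 2 that were lower (4.44%, against 3.68%). The 5 were Dkk2, Lrp6, Sfrp2, Rspo3 and Wnt5a, and the 2 were Wnt4 and Frzb. The number of lower genes was 4 without control 2 (8.89%, against 4.29% of all genes in that fit), 1 without control 3 (2.22%, against 3.06%) and 1 without lecko 3 (2.22%, against 2.31%). CPM did not overlap between the groups for 7 WNT genes higher in lecko skin (15.6%, against 7.37% of all genes) and 3 lower (6.67%, against 7.23%). With control 1 as the sole control these numbers were 14 higher (31.1%, against 27.0% of all genes) and 10 lower (22.2%, against 27.3%).

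Differences were small. With all libraries, the 45 fitted log2 fold changes lay within 0.5 of 0, the largest being 0.47 for Sfrp4. That limit rests on single libraries: Sfrp4 was at 0.72 without lecko 3, Wnt7a at -0.65 without lecko 3, Wnt16 at 0.55 without lecko 1 and Rspo3 at 0.51 without lecko 2. Rspo2 was at 0.96, Sfrp4 at 0.54 and Wnt16 at 0.52 with control 1 as the sole control. With all libraries the 95% interval lay wholly within 1 of 0 for 43 genes, the exceptions being Wnt7a and Sfrp4. Of the 45 genes, 29 were positive (64.4%, against 51.9% of all genes), with a median of 0.06, where that of all genes was 0.01. The sign stayed the same in every alternative for 26 of the 45 genes and turned in some for 19. By library, the median deviation of the 45 genes from the control mean was 0.01, 0.04 and 0.12 in lecko libraries 1 to 3 and -0.02, 0.00 and 0.01 in controls 1 to 3, so lecko 3 was the highest.

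**Figure D1:**
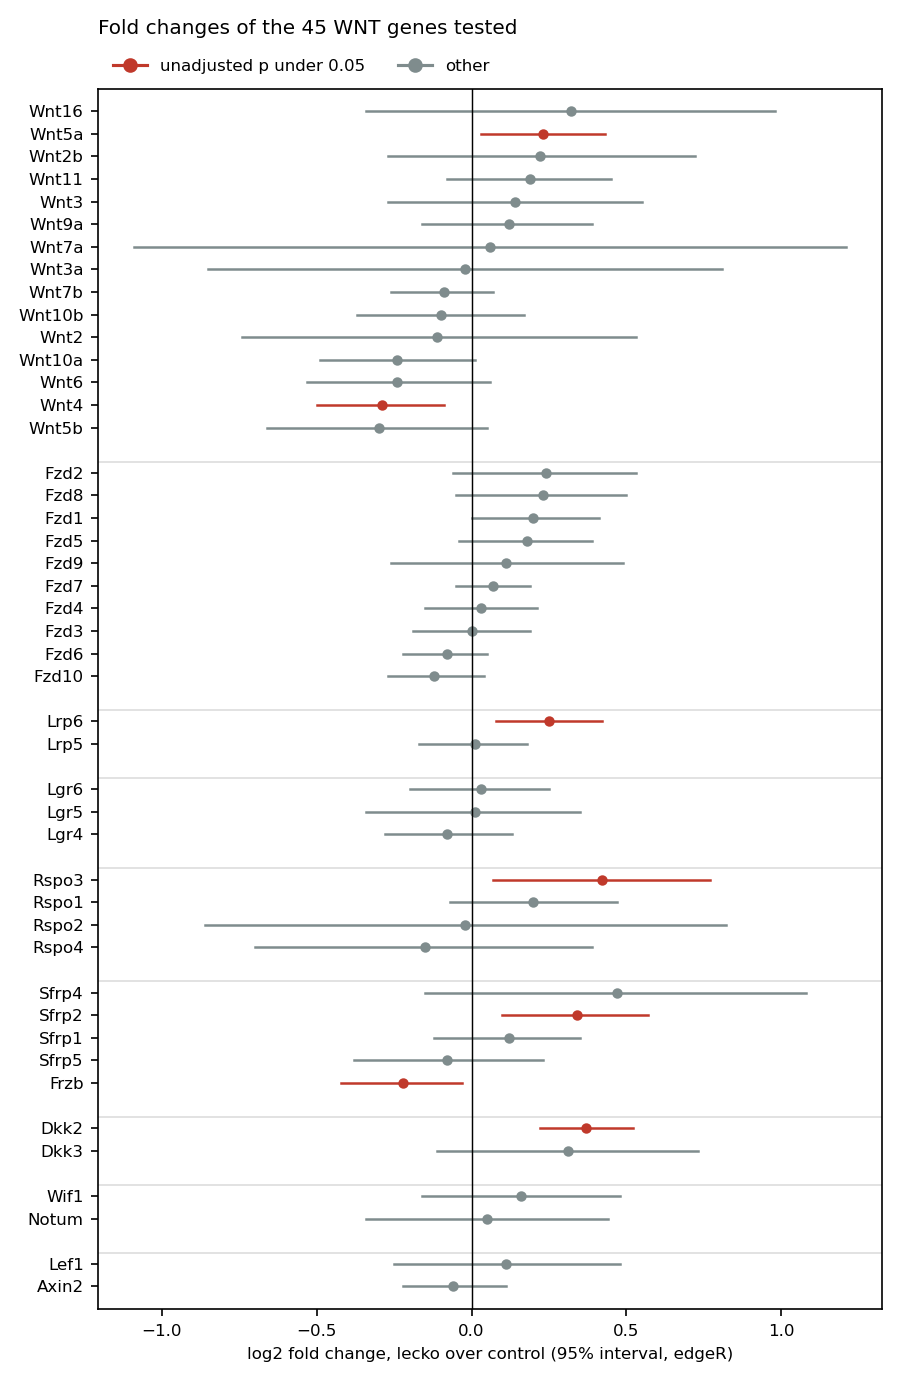
Fitted log2 fold change (lecko over control, x axis) of the 45 WNT genes tested, grouped by role from ligands at the top to Lef1 and Axin2 at the bottom. Points are edgeR estimates and lines 95% intervals; red marks the 7 genes with an unadjusted p under 0.05, and the interval of Dkk2 lies farthest from 0, at 0.22 to 0.52.

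Levels differed far more between WNT genes than between groups. To compare genes, CPM were divided by the exon length in kilobases. Wif1 stood highest, at 179 ± 29.9 CPM per kb in lecko and 161 ± 20.5 CPM per kb in control skin (SD, n = 3 each), well above every other WNT gene. Dkk3 was at 40.3 ± 4.73 CPM per kb in lecko and 32.4 ± 7.32 CPM per kb in control skin, Frzb at 31.4 ± 1.39 and 36.7 ± 4.39, and Fzd1 at 35.2 ± 3.05 and 30.6 ± 3.26 (SD, n = 3 each). Dkk3, Frzb and Fzd1 came next, and their order differed between lecko and control skin. At the other end, 4 genes had too few reads to be tested. Dkk1, an Lrp6 inhibitor, had 0 to 3 reads per library, Wnt9b had 4 to 11, and Wnt1 and Wnt8b had 0 or 1.

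**Figure D2:**
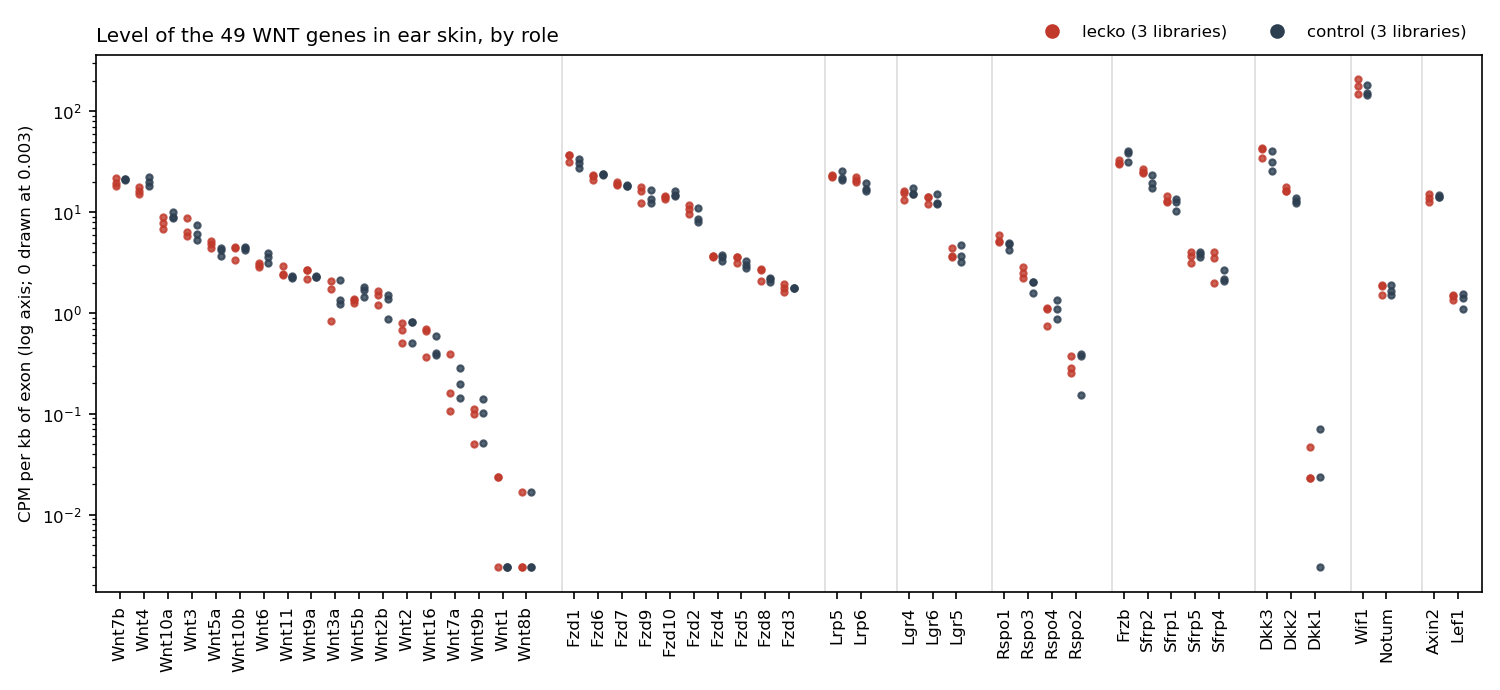
CPM per kb of exon (log axis) of all 49 WNT genes, grouped by role and ordered by level, with 3 lecko libraries left (red) and 3 control libraries right (dark) of each gene. Levels run from Wif1 at the top of the scale to Wnt1 and Wnt8b, where a 0 is drawn at 0.003, and within most genes the groups overlap.

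Dkk2, a secreted inhibitor that binds Lrp6, had the smallest p of the WNT genes and ranked 15 among all genes tested. It gave 60.0, 60.7 and 65.5 CPM in lecko libraries 1 to 3, against 47.5, 50.9 and 45.9 CPM in controls 1 to 3. Every lecko library was above every control. The means were 62.1 ± 2.98 CPM in lecko and 48.1 ± 2.58 CPM in control skin (SD, n = 3 each), 29% higher on the fitted scale. The log2 fold change was 0.37 (95% interval 0.22 to 0.52), with an adjusted p of 0.341 by edgeR, 0.0431 by DESeq2 and 0.401 by limma-voom, all with Benjamini-Hochberg adjustment. Over the 17 alternatives of tool, filter, scaling, covariate and libraries, the adjusted p (edgeR, DESeq2 or limma) ran from 0.0431 to 0.938. Its log2 fold change was 0.33 to 0.41 with each library left out and 0.38 with control 1 as the sole control.

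Dkk3, a divergent Dickkopf protein whose action on WNT signalling is less clear, gave 141, 117 and 147 CPM in lecko libraries 1 to 3, against 106, 135 and 85.8 CPM in controls 1 to 3. Control 2 was above lecko 2, so the groups overlapped. The log2 fold change was 0.31 (95% interval -0.11 to 0.73), with 0.49 without control 2 and 0.17 without control 3.

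Wnt4, an epidermal ligand, gave 67.8, 74.4 and 64.2 CPM in lecko libraries 1 to 3, against 94.0, 75.5 and 83.6 CPM in controls 1 to 3. The groups did not overlap, but lecko 2 and control 2 were close. Its means were 68.8 ± 5.18 CPM in lecko and 84.4 ± 9.27 CPM in control skin (SD, n = 3 each). The log2 fold change was -0.29 (95% interval -0.50 to -0.09), with an adjusted p of 0.504 by edgeR with Benjamini-Hochberg adjustment. With control 1 as the sole control it was -0.46. It was -0.45 with Y-linked expression, high only in controls 2 and 3, as a covariate. That fit also sets the lecko libraries against control 1 alone.

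Sequences before a transcript start are shown for Dkk2 and Wnt4, the WNT genes with the smallest p in each direction. Those of Sfrp2 and Frzb, the next in each direction with a promoter in the RefSeq table, are shown too. These genes lead the list in each direction, although none passed edgeR's adjusted threshold. RefSeq gives promoters for 33 of the 49 genes (39 windows, build GRCm38.p6). Each window holds the 250 bases before a transcript start on the gene's strand, 5′ to 3′, and capitals mark the GC box GGGCGG and the TATA box TATAAA on either strand. That start need not be the first base of the RefSeq gene. The Sfrp2 window lies inside the gene, which begins at 83765750, and the Dkk2 window runs past the first base of its gene, 132085266.
Dkk2 promoter, chr3:132085042-132085291, plus strand: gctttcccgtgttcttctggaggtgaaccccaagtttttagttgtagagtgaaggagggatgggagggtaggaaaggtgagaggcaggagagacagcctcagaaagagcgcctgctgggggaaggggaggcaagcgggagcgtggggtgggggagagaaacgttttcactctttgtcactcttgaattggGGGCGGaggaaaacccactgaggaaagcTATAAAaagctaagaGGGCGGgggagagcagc
Sfrp2 promoter, chr3:83766071-83766320, plus strand: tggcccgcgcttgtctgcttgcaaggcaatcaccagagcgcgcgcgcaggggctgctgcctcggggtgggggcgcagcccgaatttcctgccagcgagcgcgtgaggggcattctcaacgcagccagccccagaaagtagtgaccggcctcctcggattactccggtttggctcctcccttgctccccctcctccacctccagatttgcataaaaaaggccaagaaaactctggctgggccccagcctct
Wnt4 promoter, chr4:137277385-137277634, plus strand: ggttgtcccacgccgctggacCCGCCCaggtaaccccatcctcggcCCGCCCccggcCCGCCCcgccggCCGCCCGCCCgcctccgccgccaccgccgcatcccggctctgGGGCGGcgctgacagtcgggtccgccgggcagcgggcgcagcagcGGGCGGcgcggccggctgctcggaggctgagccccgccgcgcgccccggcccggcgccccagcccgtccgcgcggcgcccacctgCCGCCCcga
Frzb promoter, chr2:80447397-80447646, minus strand: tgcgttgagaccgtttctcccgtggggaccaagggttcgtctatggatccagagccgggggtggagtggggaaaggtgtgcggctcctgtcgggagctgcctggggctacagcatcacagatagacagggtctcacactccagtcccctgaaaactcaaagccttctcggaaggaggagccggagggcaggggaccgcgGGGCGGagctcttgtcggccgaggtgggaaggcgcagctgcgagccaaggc
The Wnt4 window is 85.2% G or C with 44 CpG dinucleotides and 8 GC boxes, some of which overlap. The Dkk2 window is 55.6% G or C, with 7 CpG, 2 GC boxes and a TATA box that begins 32 bases before its transcript start. The Sfrp2 and Frzb windows are 63.6% and 64.4% G or C, with 16 CpG each, and hold 0 and 1 GC boxes. A TCF/LEF core, searched as CTTTGAA and CTTTGAT on both strands, is in none of these 4 windows. It is in 7.69% of the WNT gene windows (those of Dkk1, Wnt11 and Wnt5b) and in 7.48% of all 32851 promoter windows. A GC box is in 71.8% of the WNT gene windows and 32.7% of all windows, and a TATA box in 15.4% and 12.4%. Median G or C content was 66.4% over WNT gene windows and 52.4% over all. No window was matched for Lrp6 (chromosome 6, 134446476 to 134566913), Rspo3 (chromosome 10, 29453106 to 29535867) or Wnt5a (chromosome 14, 28504543 to 28527448). These matches describe letters in a short window, and their part in the expression values was not tested.

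**Figure D3:**
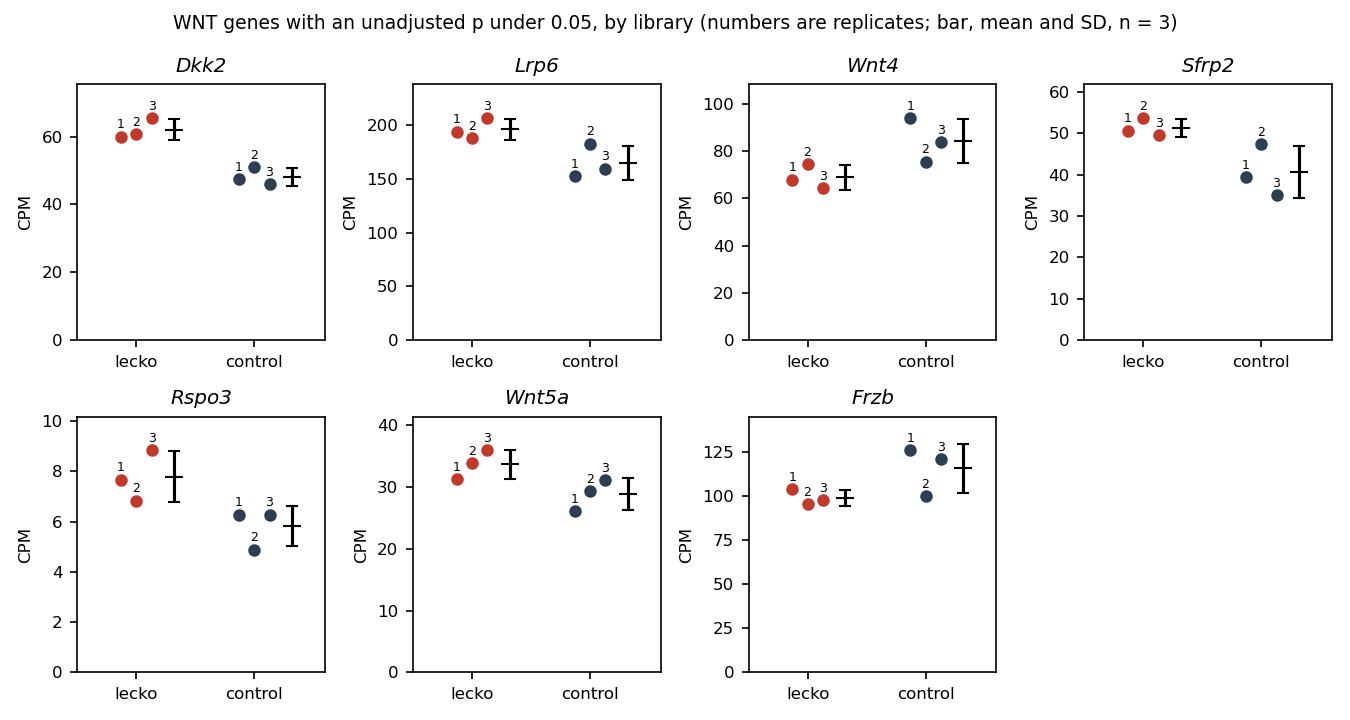
CPM (y axis, from 0) of the 7 WNT genes with an unadjusted p under 0.05, with lecko libraries left and controls right; numbers are replicates and bars the mean and SD (n = 3 each). Groups are apart for Dkk2, Lrp6, Wnt4, Sfrp2, Rspo3 and Wnt5a, and overlap for Frzb, where control 2 is below lecko 1.

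Of 18 ligand genes, 15 were tested, and 7 of these had a positive log2 fold change. Their median was -0.02, with 1 higher (Wnt5a) and 1 lower (Wnt4) at an unadjusted p under 0.05. Wnt7b and Wnt4 were the most abundant ligands per length, with 26.6% and 23.9% of the summed CPM per kb. Wnt7b, an epidermal ligand, gave 83.3, 100.1 and 88.9 CPM in lecko libraries 1 to 3, against 97.8, 97.6 and 95.5 CPM in controls 1 to 3. Lecko 2 was above all controls and the other lecko libraries were below them, with a log2 fold change of -0.09 (95% interval -0.26 to 0.07), which was -0.17 without lecko 2 and -0.05 without lecko 1. Summed over the 18 ligands, the level was 67.6, 80.3 and 73.3 CPM per kb in lecko libraries 1 to 3 and 81.1, 75.4 and 81.1 CPM per kb in controls 1 to 3, so the groups overlapped.

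Wnt5a, a ligand of the dermis that often acts without beta-catenin, gave 31.3, 33.9 and 36.0 CPM in lecko libraries 1 to 3, against 26.1, 29.4 and 31.1 CPM in controls 1 to 3. The groups did not overlap, though lecko 1 and control 3 were nearly equal. Wnt5a had a log2 fold change of 0.23 (95% interval 0.03 to 0.43), with 0.37 when Y-linked expression was a covariate and 0.15 without control 1. Its close relative Wnt5b was at 3.53 ± 0.172 CPM in lecko and 4.34 ± 0.507 CPM in control skin (SD, n = 3 each), without overlap, with a log2 fold change of -0.30 (95% interval -0.66 to 0.05).

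Wnt10a and Wnt10b, ligands of the hair follicle placode and growing follicle, had log2 fold changes of -0.24 (95% interval -0.49 to 0.01) and -0.10 (95% interval -0.37 to 0.17). Both were lowest in lecko 1, at 16.8 CPM for Wnt10a and 11.5 CPM for Wnt10b. Without lecko 1 the log2 fold change was -0.16 for Wnt10a and 0.01 for Wnt10b, and with control 1 as the sole control it was -0.37 and -0.06. Wnt6 had a log2 fold change of -0.24, with -0.07 when control 1 was the sole control. Wnt3, another follicle ligand, was at 0.14, with -0.05 without lecko 2 and 0.28 without control 3, and both genes overlapped between the groups. Wnt11, which often signals through planar polarity, gave 9.32 ± 1.00 CPM in lecko and 8.19 ± 0.186 CPM in control skin (SD, n = 3 each), without overlap (log2 0.19, 95% interval -0.08 to 0.45). Wnt9a, Wnt3a, Wnt2b, Wnt2, Wnt16 and Wnt7a had log2 fold changes from -0.11 to 0.32 with overlapping groups. Of these, the sign of Wnt3a, Wnt2b, Wnt2 and Wnt7a turned in some alternative, and with control 1 as the sole control Wnt2 was at 0.36, Wnt3a at 0.32 and Wnt2b at -0.05. Wnt7a, at 6 to 22 reads per library, had the widest interval of the WNT genes, -1.09 to 1.21, which includes a doubling and a halving.

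All 10 Frizzled receptor genes were tested, 8 of them positive, with a median log2 fold change of 0.09 and none at an unadjusted p under 0.05. Fzd1, the most abundant, gave 133, 156 and 154 CPM in lecko libraries 1 to 3, against 115, 142 and 129 CPM in controls 1 to 3. Lecko 1 was below control 2, so the groups overlapped, with a log2 fold change of 0.20 (95% interval 0.00 to 0.41) and of 0.36 with control 1 as the sole control and 0.12 without control 1. Fzd2 and Fzd8 were at 0.24 and 0.23, and Fzd5 at 0.18, all with intervals that include 0. Fzd2 was at 0.14 without control 1, 0.38 without control 3 and 0.42 with control 1 as the sole control (unadjusted p 0.021 by edgeR), where Fzd5 was at 0.04. Fzd10 was the sole Frizzled gene whose groups did not overlap, at 45.6 ± 1.56 CPM in lecko and 49.4 ± 3.30 CPM in control skin (SD, n = 3 each), with lecko 3 and control 1 nearly equal and a log2 fold change of -0.12 (95% interval -0.27 to 0.04), which was -0.06 without control 3. Fzd4, which also serves as the Norrin receptor of endothelium, was at 24.3 ± 0.216 CPM in lecko and 23.9 ± 1.72 CPM in control skin (SD, n = 3 each), with a log2 fold change of 0.03 (95% interval -0.15 to 0.21). Fzd6 and Fzd7, next to Fzd1 in level per length, had log2 fold changes of -0.08 and 0.07, Fzd9 of 0.11 and Fzd3 of 0.00. With control 1 as the sole control Fzd9 was at -0.12 and Fzd4 at 0.14. The Frizzled level summed to 125, 127 and 133 CPM per kb in lecko libraries 1 to 3 and 119, 123 and 123 CPM per kb in controls 1 to 3. These sums did not overlap, though lecko 1 was close to controls 2 and 3. Sums of the Lrp, Lgr, Sfrp and Frzb, Dkk, Wif1 and Notum, and Axin2 and Lef1 genes overlapped between the groups. R-spondin sums were 8.3 CPM per kb in both lecko 2 and control 2.

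The co-receptors Lrp5 and Lrp6 gave different values. Lrp6 gave 194, 188 and 207 CPM in lecko libraries 1 to 3, against 153, 183 and 159.6 CPM in controls 1 to 3. All lecko libraries were above all controls, by a narrow margin between lecko 2 and control 2. Lrp6 averaged 196 ± 9.46 CPM in lecko and 165 ± 15.8 CPM in control skin (SD, n = 3 each), with a log2 fold change of 0.25 (95% interval 0.08 to 0.42) and an adjusted p of 0.501 by edgeR with Benjamini-Hochberg adjustment. Lrp5 gave 142, 135 and 137 CPM in lecko libraries 1 to 3, against 132, 154 and 126 CPM in controls 1 to 3. These overlapped, with a log2 fold change of 0.01 (95% interval -0.17 to 0.18), whose sign turned without lecko 1 (-0.02), control 1 (-0.03) or control 3 (-0.05). It was 0.06 with control 1 as the sole control and 0.09 without control 2. The difference between the 2 fold changes was not tested.

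R-spondins and their Lgr receptors set how much Frizzled and Lrp protein stays on the surface. Rspo1, the most abundant R-spondin per length, gave 10.8, 9.27 and 9.53 CPM in lecko libraries 1 to 3, against 8.88, 9.14 and 7.71 CPM in controls 1 to 3. The groups did not overlap, but lecko 2 and control 2 were nearly equal. The log2 fold change was 0.20 (95% interval -0.07 to 0.47), with 0.12 without lecko 1 and 0.13 without control 3. Rspo3, an R-spondin that acts on blood vessels in mouse embryos, gave 7.67, 6.84 and 8.85 CPM in lecko libraries 1 to 3, against 6.28, 4.89 and 6.28 CPM in controls 1 to 3. All lecko libraries were above all controls. Its log2 fold change was 0.42 (95% interval 0.07 to 0.77), with an adjusted p of 0.530 by edgeR with Benjamini-Hochberg adjustment. Rspo2 and Rspo4, at under 3.2 CPM in every library, overlapped between the groups, at -0.02 and -0.15. Rspo2, with 9 to 23 reads per library, was at 0.96 with control 1 as the sole control and -0.34 without control 1, and Rspo4 was at -0.30 without control 3 and 0.01 without lecko 2. Lgr4, the most abundant Lgr gene per length, gave 78.9, 66.7 and 82.1 CPM in lecko libraries 1 to 3, against 87.2, 76.2 and 76.7 CPM in controls 1 to 3. It overlapped, at -0.08 (95% interval -0.28 to 0.13), with 0.01 without lecko 2, -0.14 without lecko 3, -0.02 without control 1 and -0.21 with control 1 as the sole control. Lgr5 and Lgr6, which mark follicle stem cells of the bulge and isthmus in mouse skin, had log2 fold changes of 0.01 (95% interval -0.34 to 0.35) and 0.03 (95% interval -0.20 to 0.25), and both turned sign without control 2.

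Genes of secreted proteins that bind WNT ligands had log2 fold changes of either sign, and differences between these genes were not tested. Sfrp2 gave 50.6, 53.7 and 49.5 CPM in lecko libraries 1 to 3, against 39.4, 47.3 and 35.0 CPM in controls 1 to 3. All lecko libraries were above all controls, with control 2 nearest. Sfrp2 averaged 51.3 ± 2.16 CPM in lecko and 40.5 ± 6.21 CPM in control skin (SD, n = 3 each), with a log2 fold change of 0.34 (95% interval 0.10 to 0.57) and an adjusted p of 0.504 by edgeR with Benjamini-Hochberg adjustment. Frzb, a relative of the Sfrp genes known from cartilage, gave 104, 95.5 and 97.5 CPM in lecko libraries 1 to 3, against 126, 99.8 and 121 CPM in controls 1 to 3. Control 2 lay among the lecko libraries. The log2 fold change of Frzb was -0.22 (95% interval -0.42 to -0.03), with -0.35 when control 1 was the sole control and -0.16 without control 1. Sfrp4 gave 16.9, 14.8 and 8.29 CPM in lecko libraries 1 to 3, against 9.11, 11.2 and 8.62 CPM in controls 1 to 3. Lecko 3 was below every control, and the interval of the log2 fold change of 0.47 ran from -0.15 to 1.08. Without lecko 1 it was 0.25, and without lecko 3 it was 0.72. Sfrp1 and Sfrp5 overlapped between the groups, at 0.12 and -0.08, with 0.01 for Sfrp1 without control 3 and 0.01 for Sfrp5 without lecko 3.

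Wif1, the WNT inhibitory factor and the most abundant WNT gene, gave 480, 342 and 413 CPM in lecko libraries 1 to 3, against 422, 352 and 333 CPM in controls 1 to 3. Both groups spanned a wide range. Wif1 had a log2 fold change of 0.16 (95% interval -0.16 to 0.48), which was -0.04 with control 1 as the sole control or with Y-linked expression as a covariate. It was 0.02 without lecko 1, 0.27 without lecko 2, 0.26 without control 1 and 0.09 without control 3. Notum, the lipase that inactivates WNT ligands, was at 3.94 ± 0.481 CPM in lecko and 3.81 ± 0.475 CPM in control skin (SD, n = 3 each), with a log2 fold change of 0.05 (95% interval -0.34 to 0.44).

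Axin2 and Lef1 belong to the canonical branch, as a target and a nuclear factor, and the activity of that branch was not measured. Axin2, a feedback inhibitor induced by beta-catenin, gave 53.7, 58.4 and 64.0 CPM in lecko libraries 1 to 3, against 60.0, 59.9 and 63.5 CPM in controls 1 to 3. Lecko 3 was above all controls, and lecko 1 and lecko 2 were below them. Its log2 fold change was -0.06 (95% interval -0.22 to 0.11), and it stayed between -0.12 and -0.01 with each library left out. Lef1, the partner of beta-catenin, gave 5.19, 4.75 and 5.33 CPM in lecko libraries 1 to 3, against 5.36, 3.85 and 4.91 CPM in controls 1 to 3. Lef1 overlapped too, at 0.11 (95% interval -0.25 to 0.48), with -0.08 when control 1 was the sole control, -0.02 without control 2 and 0.21 without control 1.

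Other genes of the pathway, taken from 4 fixed lists that hold 66 genes in all, were tested in the same fit, and 0 were called in either direction. By edgeR's unadjusted p under 0.05, Daam2 was higher and Dkkl1 and Dvl1 were lower, and DESeq2 called 0. Without control 2, edgeR called 1, Daam2, as higher. Among 20 secretion and surface genes the median log2 fold change was 0.06. Dkkl1, a Dickkopf-like gene, was at 88.0 ± 4.93 CPM in lecko and 102 ± 7.29 CPM in control skin (log2 -0.22, SD, n = 3 each). Wls, the carrier of WNT ligands to the surface, had a log2 fold change of 0.09. Among 25 cytoplasmic and nuclear genes the median was 0.03, with Dvl1, a relay downstream of Frizzled, at -0.17 and the kinase gene Gsk3a at -0.11. Among 11 planar polarity genes the median was 0.00, with Daam2, a formin that binds Dvl proteins, at 76.1 ± 1.59 CPM in lecko and 60.4 ± 9.76 CPM in control skin (log2 0.33, SD, n = 3 each). Among 14 target genes the median was 0.06, with 10 positive and 0 at an unadjusted p under 0.05. Trpm5, a taste cell channel gene, was at 1.83 ± 0.169 CPM in lecko and 1.36 ± 0.388 CPM in control skin, without overlap (log2 0.43, 95% interval -0.17 to 1.02, SD, n = 3 each). Ascl2 and Sp5, both targets of beta-catenin, were at -0.30 (95% interval -0.69 to 0.08) and -0.24 (95% interval -0.64 to 0.16). Znrf3, which removes Frizzled from the surface, was at -0.15. Sp5 was also without overlap, at 2.85 CPM in lecko and 3.37 CPM in control skin, while Ascl2 and Znrf3 overlapped. The summed target level was 554 to 639 CPM in lecko and 579 to 597 CPM in control skin, and it overlapped.

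Set against control 1 alone, the 7 genes with an unadjusted p under 0.05 had the same direction as with all libraries. The log2 fold changes were then 0.38 for Dkk2, 0.35 for Lrp6, 0.37 for Sfrp2, 0.30 for Rspo3, 0.36 for Wnt5a, -0.46 for Wnt4 and -0.35 for Frzb. This comparison holds 1 control, which is assumed to vary like the lecko libraries. The fit with the Y-linked covariate makes the same contrast, so these are not separate checks among the alternatives. The 7 genes were picked by their p in these libraries, and every alternative refits all or some of those libraries. A kept direction or p is therefore not independent evidence. Dkk2, Lrp6 and Wnt4 kept an unadjusted p under 0.05 in all 17 alternatives, Sfrp2 in 16, Rspo3 and Frzb in 13 and Wnt5a in 12. Of the 49 genes, 46 had whole-number counts in every library, and the exceptions were Wnt4, Wnt5b and Fzd4. Exons of 9 WNT genes overlap a gene on the opposite strand in GENCODE, among them Sfrp2, Rspo3, Wnt7b, Axin2 and Lef1. No source used here gives the strand setting, so reads of such pairs cannot be told apart.

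**Figure D4:**
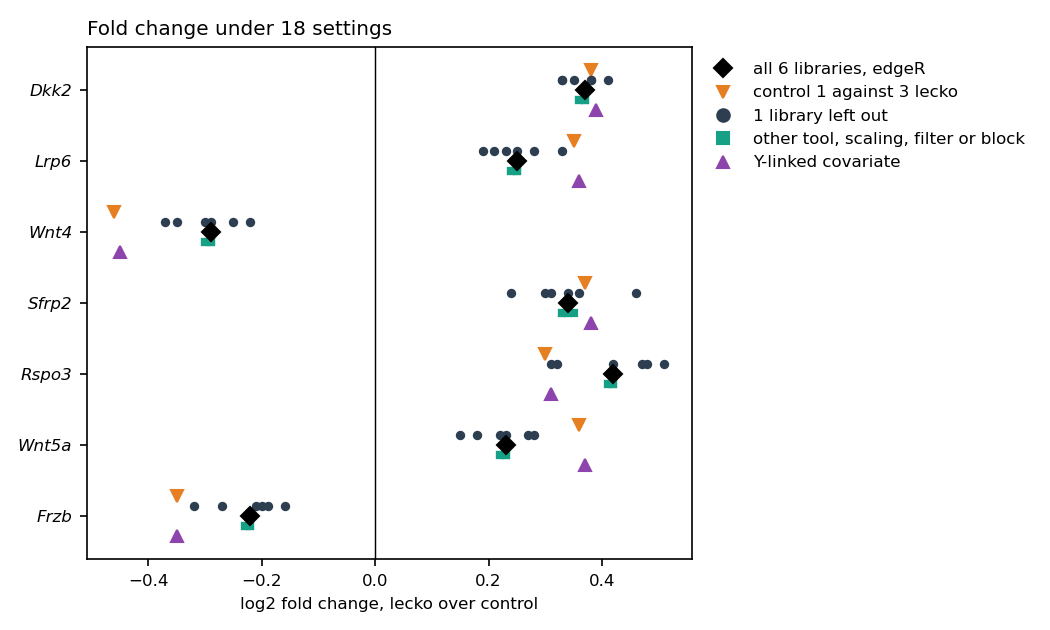
Log2 fold change (lecko over control, x axis) of the 7 WNT genes with an unadjusted p under 0.05, under the edgeR fit to all 6 libraries (diamonds) and 17 alternatives. All points keep the side of 0 they have with all libraries, from -0.46 for Wnt4 to 0.51 for Rspo3. The genes were picked by p in these same libraries, so the alternatives are not independent of that choice.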

How the data were processed

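RNA of 6 ear skin libraries was analysed from 1 table of estimated counts per gene that the authors deposited. The build GRCm38.p6 and the tools RSEM 1.3.1, Bowtie2 2.4.5 and HISAT2 2.2.1 are listed, without role or order, per the submitters' processing notes, and 9.6 to 10.5% of the deposited values per library are not whole. Counts were rounded, filtered with filterByExpr (minimum count 10, minimum total 15; 3626 genes left out), scaled by TMM and tested with edgeR 4.0.16 in R 4.3.3 (quasi-likelihood test, robust, no term but group, Benjamini-Hochberg over 14856 genes, threshold 0.05). Intervals are 95%, from the fitted standard error.

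Alternatives were DESeq2 1.42.0, limma-voom (limma 3.58.1), other scalings, filters and robustness settings, a replicate block, a covariate for libraries above 10 CPM of Y-linked genes, control 1 as the sole control, and leaving out each library. Only controls 2 and 3 were above 10 CPM, so the covariate fit and the fit with control 1 as the sole control make the same contrast. Exon lengths came from GENCODE M21 (GRCm38), coordinates and promoters from RefSeq GRCm38.p6, and all 49 genes matched by the deposited gene identifier. No pair of libraries within a group agreed within sampling noise (chi-square per degree of freedom 8.14 to 16.8). The script was tested on simulated data. Values by library are given for genes with an unadjusted p under 0.05, the most abundant gene of each role, Axin2, Lef1 and Kdr, and genes beside these were named after their values were seen. The members and lists were chosen with earlier results of these data known.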

Additional observations from a re-analysis of the deposited data

How the results depend on the processing

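Over all genes, the counts called were 2 higher and 1 lower with all libraries. They were 22 and 10 by DESeq2, and ranged from 2 to 36 higher and from 1 to 5 lower with single libraries left out (36 without control 2, 5 without control 1). WNT genes called were 0 in both directions under every alternative except DESeq2, which called 1 higher (Dkk2). Leaving out single libraries put 1 to 4 WNT genes lower at an unadjusted p under 0.05, where 2.01 to 4.55% of all genes were. Other pathway genes called higher ranged from 0 to 1, the 1 being Daam2 without control 2.

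WNT genes whose groups did not overlap numbered 7 higher and 3 lower. With control 1 as the sole control they were 14 and 10, where 27.0% of all genes were higher and 27.3% lower without overlap. Over single libraries left out they were 8 to 11 and 3 to 7, where 9.86 to 15.6% of all genes were higher and at most 14.5% lower. The lower number was 5 with DESeq2 size factors (7.74% of all genes) and 5 with upper-quartile factors (7.91%), and 1 with library size without the 50 most abundant genes (6.66%). The cause was not tested. The sign turned in some alternative for 19 of the 45 genes tested. Of those with values given by library, these were Lef1 (-0.07 with the Y-linked covariate, -0.08 against control 1, -0.02 to 0.21 over libraries left out), Wif1 (-0.04 in both of the first settings), Lgr4 (-0.14 to 0.01 over libraries left out) and Lrp5 (-0.05 to 0.09 over libraries left out, and 0.00, below 0 before rounding, with upper-quartile factors). The median over WNT genes stayed between 0.02 and 0.09, and no scaling moved the median of all genes by over 0.1.

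Replicate numbers are shared by the groups, but nothing in the labels pairs them. Deviations from the group means correlated at 0.356, -0.117 and 0.0531 across genes for numbers 1, 2 and 3, and lecko 2 and lecko 3 correlated best with another number. A replicate block left the calls at 2 higher and 1 lower over all genes and 0 among WNT genes, and gave 7 higher ones and 2 lower ones an unadjusted p under 0.05 (4.99% and 3.39% of all genes). Low counts limit Wnt7a (6 to 22 reads per library), Rspo2 (9 to 23) and the 4 genes not tested.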
